A study of Mus musculus with 8 samples.

Results

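The genes described here are Hmgcs1, Idi1, Fdft1, Sqle, Lss, Cyp51 and Dhcr7, 7 enzymes of cholesterol synthesis, in dorsal skin of wild-type mouse embryos. They were chosen by symbol, with earlier results of these data known. Every probeset annotated to exactly 1 of the 7 symbols was taken. This gave 19 of the 34945 probesets with 1 symbol and 7 of the 18193 genes. All 7 act in synthesis and none in cholesterol uptake, so uptake and transport genes are given below as a separate list. Skin was profiled on 8 Affymetrix Mouse Genome 430 2.0 arrays over the days in which its epidermis stratifies and forms a barrier, 2 of them from embryonic day 14.5 (E14.5) and 3 each from E16.5 and E18.5. All embryos were wild type and untreated as far as the labels say. Whether each array holds another animal is not stated, so p-values here reflect only the scatter among these arrays, which may be technical.

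Cholesterol is made from acetyl-CoA through mevalonate, isoprenoid diphosphates, squalene and lanosterol. When sterols in the endoplasmic reticulum run low, the escort protein Scap carries the transcription factors Srebf1 and Srebf2 to the Golgi, where they are cleaved, enter the nucleus and bind sterol regulatory elements of the synthesis genes; the Insig proteins hold Scap back when sterols are abundant. In skin, cholesterol is with ceramides and free fatty acids a main lipid of the cornified layer, and 7-dehydrocholesterol, the substrate of Dhcr7, is the precursor of vitamin D.

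The promoters of 4 of the genes that differed between stages are printed for reference, from RefSeq sequences on build GRCm38.p6, 5′ to 3′ on the gene's strand, with 250 bases before the transcription start and 50 from it. Capitals mark matches, on either strand, to the sterol regulatory element TCACNCCAC and to the CCAAT box; on the opposite strand a CCAAT box reads ATTGG.
Hmgcs1, chr13:119690101-119690400, plus strand: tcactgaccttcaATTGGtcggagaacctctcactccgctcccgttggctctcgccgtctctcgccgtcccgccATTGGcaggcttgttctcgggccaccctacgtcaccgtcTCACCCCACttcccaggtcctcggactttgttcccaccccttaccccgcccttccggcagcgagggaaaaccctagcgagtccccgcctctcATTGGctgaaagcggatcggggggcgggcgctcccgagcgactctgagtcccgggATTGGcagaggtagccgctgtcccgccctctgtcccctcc
Idi1, chr13:8885356-8885655, plus strand: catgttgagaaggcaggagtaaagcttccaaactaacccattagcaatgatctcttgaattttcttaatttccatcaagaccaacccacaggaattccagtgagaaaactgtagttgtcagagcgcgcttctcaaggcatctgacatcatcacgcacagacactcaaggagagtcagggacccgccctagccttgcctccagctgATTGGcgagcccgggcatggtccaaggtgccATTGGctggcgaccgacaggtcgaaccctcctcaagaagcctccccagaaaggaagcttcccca
Cyp51, chr5:4104648-4104947, minus strand: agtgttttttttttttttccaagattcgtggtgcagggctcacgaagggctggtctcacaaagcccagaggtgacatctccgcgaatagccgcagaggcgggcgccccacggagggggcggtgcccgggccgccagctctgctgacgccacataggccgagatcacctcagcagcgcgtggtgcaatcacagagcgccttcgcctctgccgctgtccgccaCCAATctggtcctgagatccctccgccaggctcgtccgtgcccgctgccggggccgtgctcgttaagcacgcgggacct
Dhcr7, start 3, chr7:143829964-143830263, plus strand: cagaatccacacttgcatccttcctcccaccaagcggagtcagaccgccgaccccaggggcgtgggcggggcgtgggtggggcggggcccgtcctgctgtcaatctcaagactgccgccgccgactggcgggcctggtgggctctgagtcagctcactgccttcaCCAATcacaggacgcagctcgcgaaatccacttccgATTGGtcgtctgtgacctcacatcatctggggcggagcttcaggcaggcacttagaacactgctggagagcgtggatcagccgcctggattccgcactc

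Promoters were listed for 5 of the 7 genes (Hmgcs1, Idi1, Lss, Cyp51 and Dhcr7), 7 promoters in all, since Dhcr7 had 3 starts. Only start 3 of Dhcr7 is printed, and of its 3 starts this alone had CCAAT matches. The sterol regulatory element was sought only as the pattern TCACNCCAC, and other forms of it were not sought. That pattern was found in 1 of the 7, that of Hmgcs1, at 137 to 129 bases before the start (positions -137 to -129). It occurred in 1.24% of the 32851 promoters of the table. CCAAT was found in 5 of the 7 promoters, at least 1 for each of the 5 genes, and in 37.4% of all promoters. The GC box GGGCGG, sought on both strands and not marked above, was found in 6 of the 7 and in 35.7% of all. The 3 motifs share no overlapping matches in the 4 printed promoters.

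Signals are the deposited intensities, analysed as log2(signal + 16), and an array's background is the 95th percentile of 80 olfactory and vomeronasal receptor probesets. Background lay between 33.6 and 92.2 on the 8 arrays, and 61.4% to 74.6% of the 34945 probesets were above it. All 6 basal keratinocyte markers measured were above background at every stage, as were all 7 suprabasal and granular markers except Flg, which was at background at E14.5. The E14.5 arrays stood apart in their controls: the beta-actin 3′ over 5′ signal ratio was 1.11 to 1.37 on the E16.5 and E18.5 arrays, against 6.495 and 6.91 at E14.5, that of Gapdh was 0.692 to 0.869 against 2.96 and 3.03, and the hybridisation control bioB gave 539.6 to 648.6 against 5592 and 5287. The median signal was 120.1 to 153 on the later arrays and 63.4 and 60.8 at E14.5. Stage and array preparation cannot be told apart in a difference from E14.5, so E18.5 against E16.5 is given first. There the beta-actin ratio was 1.35 to 1.37 at E18.5 and 1.11 to 1.14 at E16.5.

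Between E16.5 and E18.5 calls among the 7 genes went in both directions. Sqle and Dhcr7, which act on squalene and on the last sterol intermediate, were 1.90-fold and 2.19-fold lower at E18.5. Probesets of Hmgcs1, Idi1 and Cyp51 were higher by 1.57-fold to 2.27-fold, apart from a dim Hmgcs1 probeset with a larger rise, and no probeset of Fdft1 or Lss passed the test. In these whole-skin samples, fewer cells of a type and less RNA per cell cannot be told apart. By limma, 5 of the 19 probesets were called higher and 2 lower at E18.5 (Benjamini-Hochberg adjusted p under 0.05 over all probesets), against 6.27% called higher and 4.44% called lower of all 34945, or 7 of 19 called against 10.7%. The median log2 change of the 19 probesets was 0.39, and that of all probesets 0.12. The arrays of the stages did not overlap for 8 of the 19 probesets in the higher direction and 2 in the lower, against 23.2% and 13.6% of all probesets. The 8 included Fdft1 1438918_at and 1438919_x_at, which were at or near background. Background itself was 62.2 to 92.2 on the E18.5 arrays and 33.6 to 53.2 on the E16.5 arrays. With 1 probeset a gene, the brightest over the 8 arrays, limma called 0 of 7 genes higher and 2 lower, against 6.69% and 5.21% of all genes; 1 of the 5 others, Cyp51, had an unadjusted p under 0.05, with a positive change. The rises thus came from probesets that were not the brightest of their gene over the 8 arrays, and the brightest was not called. They were not all dim at each stage. At E18.5 Hmgcs1 1433445_x_at averaged 7362, against 7235 for the brightest, 1433443_a_at.

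From E14.5 to E16.5 most of the probesets were lower at the later stage. By limma, 2 of the 19 probesets were called higher at E16.5 and 12 lower, against 38.9% and 18.7% of all probesets; 14 of the 19 were called, against 57.6% of all. Their median log2 change was -1.11, where that of all probesets was 0.38. The rises were those of Sqle, 4.18-fold, and of 1 probeset of Fdft1, 2.72-fold. The falls included every probeset of Cyp51, 4 of the 5 of Hmgcs1, the single probeset of Dhcr7 and 1 of the 2 of Idi1, which was 11.6-fold lower. The arrays did not overlap for 4 of the 19 probesets in the higher direction and 13 in the lower, against 47.9% and 25.8% of all. With the brightest probeset of each gene, 1 of 7 was called higher and 5 lower, against 37.1% and 20.8% of all genes.

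**Figure D1:**
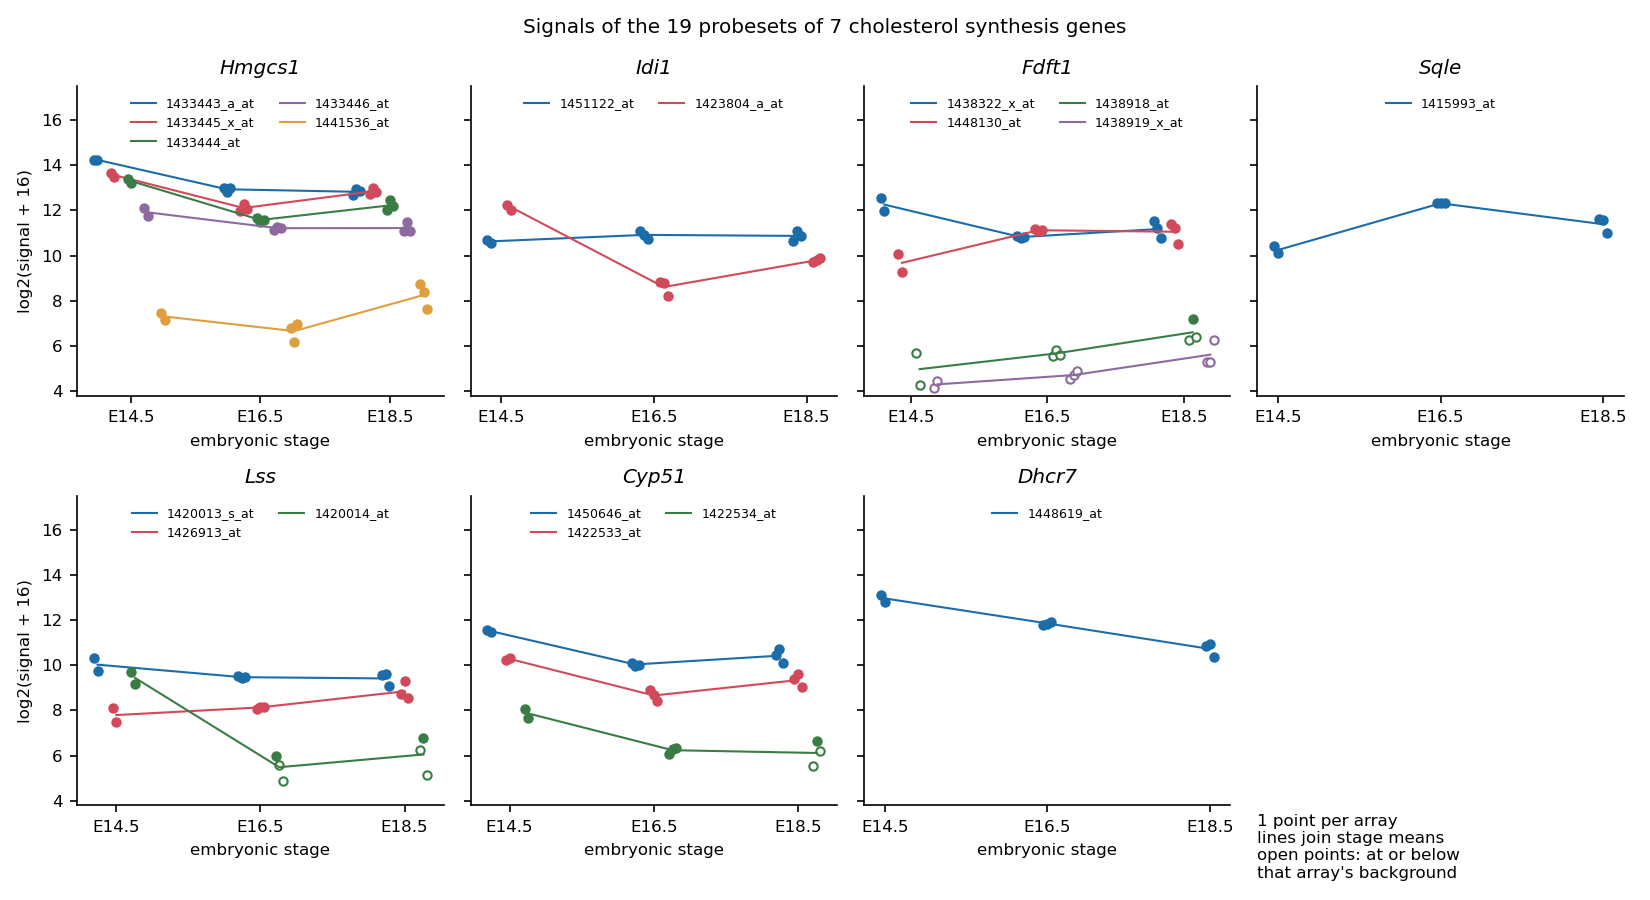
Signals of the 19 probesets of the 7 genes on a log2(signal + 16) scale (vertical axis) by stage (horizontal axis), with 1 point per array and lines through the stage means; open points lie at or below the array's background. Sqle peaks at E16.5, Dhcr7 is lower at each later stage, and several probesets of Hmgcs1, Idi1 and Cyp51 are lowest at E16.5.

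Hmgcs1 encodes the cytosolic synthase that makes HMG-CoA, the entry to the mevalonate pathway, and had 5 probesets. The brightest, 1433443_a_at, gave 19436 and 19064 at E14.5, 8168, 7249 and 8026 at E16.5, and 6554, 7784 and 7366 at E18.5. Both E14.5 arrays lay above all later ones, and the E16.5 and E18.5 arrays overlapped. Its log2 change was -0.11 ± 0.10 (SE; adjusted p = 0.516) at E18.5 against E16.5 and -1.30 ± 0.11 (adjusted p = 3.17e-06, 2.46-fold lower) at E16.5 against E14.5. Probeset 1433445_x_at gave 12671 and 11500 at E14.5, 4003, 4984 and 4231 at E16.5, and 6845, 8129 and 7112 at E18.5, so E16.5 was the lowest stage with no overlap. At E18.5 it was 1.67-fold higher than at E16.5 (log2 0.74 ± 0.12, adjusted p = 0.0043). Probeset 1433444_at followed the same order, with 10552 and 9565 at E14.5, 3191, 2864 and 3054 at E16.5, and 4115, 5668 and 4622 at E18.5. Its rise at E18.5 was 1.57-fold (log2 0.65 ± 0.13, adjusted p = 0.0117); the call was lost when E16.5 replicate 2 (adjusted p = 0.0582) or 3 (adjusted p = 0.0536) was left out, and in a fit with no variance trend (adjusted p = 0.0619). Suffixes x and s mark probesets whose probes can also match other transcripts, and suffix a marks several transcripts of the same gene.

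The other 2 Hmgcs1 probesets differed from these. Probeset 1433446_at averaged 2383 ± 402 at E18.5 and 2358 ± 107 at E16.5 (SD, n = 3 each), a log2 change of 0.00 ± 0.14, and 3865 ± 685 at E14.5 (SD, n = 2). The dim 1441536_at gave 413, 315 and 185 at E18.5, against 97, 56 and 111 at E16.5. The value of 56, from E16.5 replicate 2, lay just above that array's background of 53.2. The arrays of these stages did not overlap (log2 1.60 ± 0.33, adjusted p = 0.0139), and the call was lost without E16.5 replicate 2 (adjusted p = 0.0598). At E16.5 against E14.5 the 5 probesets changed by log2 -1.72 to -0.65, with 4 called lower and 1441536_at not called (adjusted p = 0.161). The call of Hmgcs1 1433446_at was lost under quantile normalization (log2 -0.35, adjusted p = 0.0829).

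Idi1 encodes the isomerase that interconverts the isopentenyl and dimethylallyl diphosphates, and its 2 probesets disagreed. Probeset 1423804_a_at gave 4850 and 4165 at E14.5, 441, 430 and 276 at E16.5, and 824, 868 and 928 at E18.5, with no overlap between any pair of stages. It was 2.27-fold higher at E18.5 than at E16.5 (log2 1.18 ± 0.18, adjusted p = 0.00343) and 11.6-fold lower at E16.5 than at E14.5 (log2 -3.53 ± 0.20, adjusted p = 1.61e-07). The call of the later rise held in all 18 alternatives run, with log2 changes of 0.98 to 1.32. Probeset 1451122_at, the brighter over the 8 arrays, gave 1649 and 1490 at E14.5, 2169, 1924 and 1684 at E16.5, and 1602, 2171 and 1837 at E18.5. It was not called in either interval (log2 -0.05 ± 0.15 and 0.29 ± 0.16), and it turned to a called fall of -0.67 at E16.5 against E14.5 when each array was centred on its median (adjusted p = 0.00436).

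Fdft1 encodes squalene synthase, the first enzyme committed to sterols, and had 4 probesets, of which 1438919_x_at was at background on all 8 arrays and 1438918_at on 7 of 8. The remaining 2 were called in opposite directions at E16.5 against E14.5. Probeset 1438322_x_at gave 1850, 1716 and 1808 at E16.5, against 5891 and 4041 at E14.5 (log2 -1.44 ± 0.21, adjusted p = 0.000142). Probeset 1448130_at gave 2272, 2163 and 2198 at E16.5, against 1062 and 606 at E14.5 (log2 1.44 ± 0.27, adjusted p = 0.000897), a rise whose call was lost under median centring (log2 0.49, adjusted p = 0.142). At E18.5 they gave 2904, 2336 and 1766 for 1438322_x_at and 2712, 2389 and 1449 for 1448130_at. Limma called 0 of the 4 probesets at E18.5 against E16.5, while 2 of them, the dim 1438918_at and 1438919_x_at, had an unadjusted p under 0.05.

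Sqle encodes squalene epoxidase, the first oxygen-requiring step and a rate-limiting enzyme of the pathway, and had 1 probeset, 1415993_at. It gave 1340 and 1076 at E14.5, 5073, 5069 and 5082 at E16.5, and 3084, 3036 and 2014 at E18.5. E16.5 was the highest stage and E14.5 the lowest, with no overlap between any pair of stages. Sqle was lower at E18.5 than at E16.5, at 2712 ± 604 and 5075 ± 6.63 (SD, n = 3 each; log2 -0.93 ± 0.17, adjusted p = 0.00742), and the fall was called in all 19 alternatives run (log2 -1.04 to -0.73). It was 4.18-fold higher at E16.5 than at E14.5 (log2 2.06 ± 0.19, adjusted p = 3.58e-06), again in all 19 alternatives (log2 1.11 to 2.22). Of the members' brightest probesets, it alone was called higher at E16.5 against E14.5; that of Idi1 also lay higher without overlap but was not called.

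Lss encodes lanosterol synthase, which closes the sterol rings, and had 3 probesets that disagreed at E16.5 against E14.5. Probeset 1420014_at gave 47, 33 and 14 at E16.5, against 809 and 569 at E14.5. Only 1 of the 3 E16.5 arrays was above background, and the fitted log2 change was -3.95 ± 0.49 (adjusted p = 4.04e-05), whose size is uncertain for that reason. The brightest, 1420013_s_at, gave 714, 678 and 693 at E16.5, against 1263 and 833 at E14.5 (log2 -0.55 ± 0.22, 1.47-fold lower). Its adjusted p of 0.04996 lay at the threshold, and the call was lost in 9 of 19 alternatives, among them without E14.5 replicate 1 (log2 -0.26, adjusted p = 0.406), each E16.5 replicate (adjusted p = 0.089 to 0.112) and E18.5 replicate 1 (adjusted p = 0.0514) or 2 (adjusted p = 0.0521). Probeset 1426913_at gave 403, 609 and 356 at E18.5, 252, 272 and 273 at E16.5, and 259 and 164 at E14.5. Its E18.5 arrays lay above all others (log2 0.71 ± 0.24 against E16.5), but limma called 0 of the 3 Lss probesets at E18.5 against E16.5, and 1426913_at alone had an unadjusted p under 0.05.

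Cyp51 encodes lanosterol demethylase, the first step after lanosterol, and its 3 probesets agreed between E14.5 and E16.5. Probeset 1450646_at gave 3004 and 2790 at E14.5, 1076, 999 and 1025 at E16.5, and 1376, 1689 and 1076 at E18.5. Probeset 1422533_at gave 1204 and 1250 at E14.5, 465, 393 and 322 at E16.5, and 647, 766 and 514 at E18.5. E14.5 lay above both later stages without overlap, and for 1422533_at E18.5 also lay above E16.5. At E16.5 against E14.5 the 3 probesets were lower by close amounts, with log2 changes of -1.47, -1.62 and -1.62 (adjusted p = 3.15e-05 to 0.00254), and the range of 0.15 was the narrowest of the 5 genes with several probesets. At E18.5 against E16.5 1422533_at was called higher (1.61-fold, log2 0.68 ± 0.19, adjusted p = 0.0425). This call was lost in 11 of 18 alternatives, including 7 of the 8 that leave out an array (adjusted p = 0.056 to 0.178); it held without E18.5 replicate 3. Without that array 1450646_at was called higher as well (log2 0.55, adjusted p = 0.026, against 0.39 ± 0.16 and adjusted p = 0.142 with all arrays). The third probeset, 1422534_at, gave 30, 83 and 57 at E18.5, with 1 of 3 arrays above background, and 52, 61 and 66 at E16.5.

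Dhcr7 encodes the reductase that turns 7-dehydrocholesterol into cholesterol, and had 1 probeset, 1448619_at. It gave 8892 and 7073 at E14.5, 3532, 3621 and 3890 at E16.5, and 1850, 1937 and 1307 at E18.5, so each stage lay below the one before with no overlap. The log2 change was -1.13 ± 0.16 (adjusted p = 0.00236) at E18.5 against E16.5 and -1.11 ± 0.18 (adjusted p = 0.000269) at E16.5 against E14.5, and both were called in all 19 alternatives run. Over the whole course Dhcr7 was 4.70-fold lower at E18.5 than at E14.5 (log2 -2.23 ± 0.18, adjusted p = 1.57e-06).

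**Figure D2:**
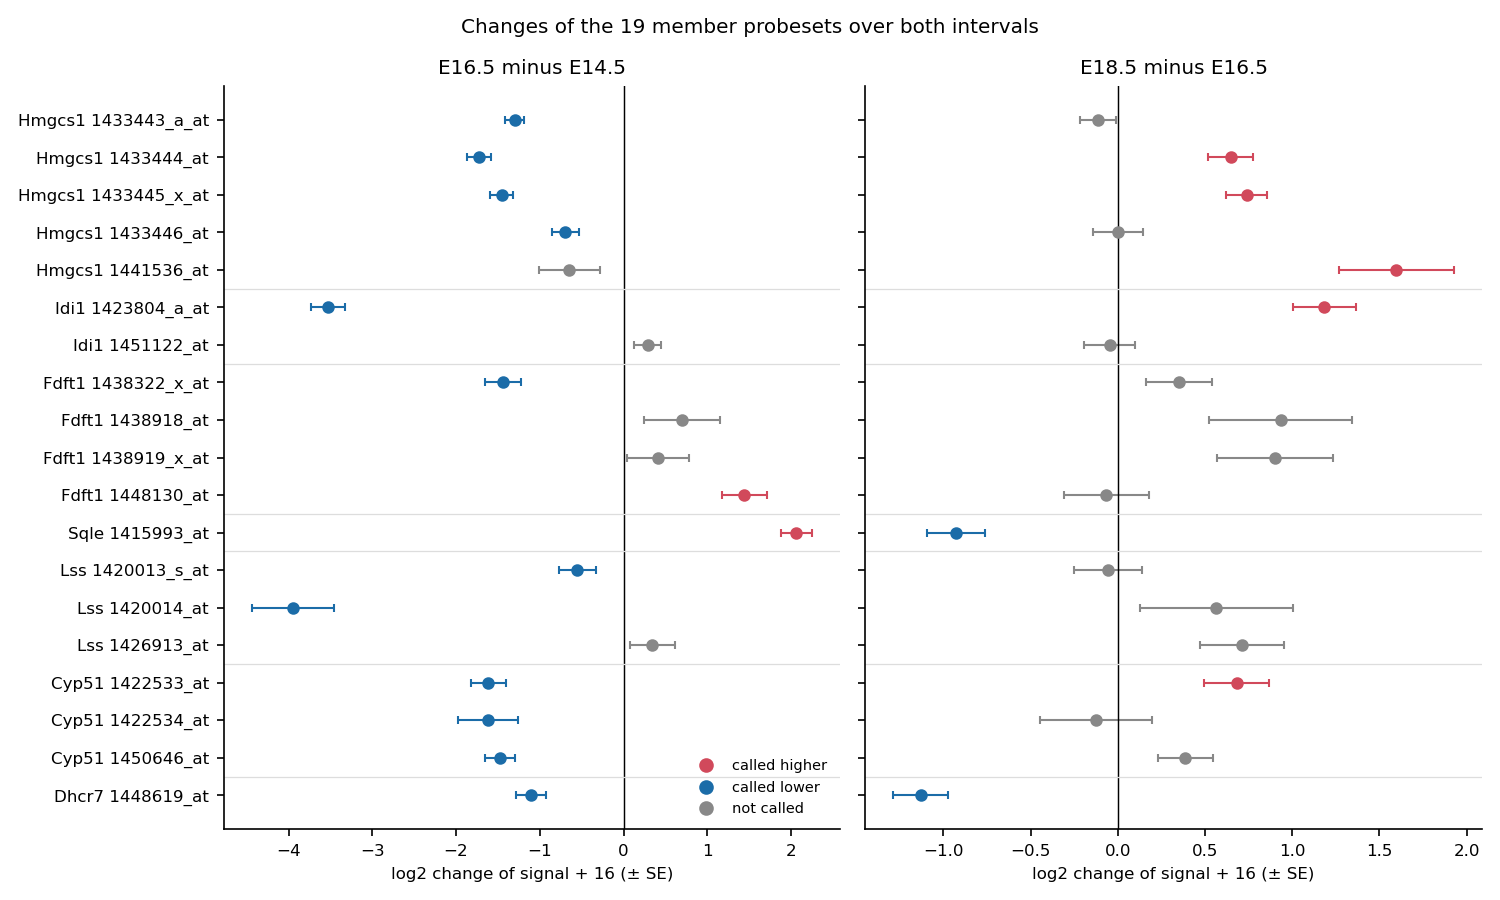
Log2 change ± SE (horizontal axes) of each of the 19 probesets, grouped by gene in pathway order (vertical axis), at E16.5 against E14.5 (left) and at E18.5 against E16.5 (right); colour gives the limma call. The probesets of Cyp51 lie together on the left, while those of Idi1, Fdft1 and Lss are spread by log2 3.82, 2.88 and 4.29; the last rests on an Lss probeset near background at E16.5.

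The changes of the intervals were compared in the same limma fit, as the change from E16.5 to E18.5 minus that from E14.5 to E16.5. The E16.5 arrays enter both changes. The E14.5 arrays enter the earlier change, so stage and array preparation cannot be told apart in this comparison either. Of the 19 probesets 10 were called higher and 2 lower, against 15.8% and 29.1% of all probesets, and 12 either way, against 44.9%. By brightest probeset, 3 of 7 genes were called higher and 1 lower, against 17.6% and 27.5% of all genes. The 10 comprised all 5 probesets of Hmgcs1, 1423804_a_at of Idi1, 1438322_x_at of Fdft1, 1420014_at of Lss, and 1422533_at and 1450646_at of Cyp51. The largest difference among them was that of Idi1 1423804_a_at (log2 4.71 ± 0.32, adjusted p = 2.62e-06). The 2 called lower were Sqle (log2 -2.99 ± 0.30, adjusted p = 2.03e-05) and Fdft1 1448130_at (log2 -1.51 ± 0.44, adjusted p = 0.0166). The Fdft1 call was lost without E14.5 replicate 2 (adjusted p = 0.0609), on leaving out E16.5 replicate 1 (adjusted p = 0.0561) or 3 (adjusted p = 0.0507), and under median centring (log2 -0.67). The Hmgcs1 1433446_at call (log2 0.70, adjusted p = 0.0483) was lost without E14.5 replicate 1 (adjusted p = 0.154), each E16.5 replicate (adjusted p = 0.0915 to 0.151) or E18.5 replicate 2 (adjusted p = 0.0651), and that of Hmgcs1 1441536_at without E16.5 replicate 2 (adjusted p = 0.0581). For Dhcr7 the changes differed by log2 -0.02 ± 0.28 (adjusted p = 0.957); under median centring the difference was 0.81 (adjusted p = 0.0488).

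At E18.5 against E14.5, 6 of the 19 probesets were called higher and 12 lower, against 42.9% and 16.9% of all probesets; 18 were called, against 59.8%. Their median log2 change was -0.72, where that of all probesets was 0.59. By brightest probeset, 1 of 7 genes was called higher and 5 lower, against 41.6% and 19.4% of all genes. Arrays did not overlap for 6 probesets in the higher and 12 in the lower direction, against 49.6% and 20.0% of all. Sqle was 2.20-fold higher (log2 1.14 ± 0.19, adjusted p = 0.000315), but by log2 0.07 under median centring (adjusted p = 0.781). The other called rises were 1441536_at of Hmgcs1 (log2 0.95, adjusted p = 0.0451), 1426913_at of Lss and 3 probesets of Fdft1, 2 of which were at or near background. The Hmgcs1 1441536_at call was lost without either E14.5 replicate, E16.5 replicate 1 or 3, or E18.5 replicate 1 or 2 (adjusted p = 0.0537 to 0.196), and its change was log2 -0.04 under quantile normalization and -0.12 under median centring. The rise of Lss 1426913_at was lost without E14.5 replicate 2 (adjusted p = 0.0658), that of Fdft1 1438918_at without E14.5 replicate 2 (adjusted p = 0.113) and that of Fdft1 1438919_x_at without E14.5 replicate 1 (adjusted p = 0.064). Falls were called for the other 4 probesets of Hmgcs1, all 3 of Cyp51, 1423804_a_at of Idi1 (log2 -2.34 ± 0.20), 1438322_x_at of Fdft1, 2 of Lss and Dhcr7. Of these, Lss 1420013_s_at was lost without E14.5 replicate 1 (adjusted p = 0.298) or E18.5 replicate 3 (adjusted p = 0.0846), and Hmgcs1 1433445_x_at (adjusted p = 0.089) and 1433446_at (adjusted p = 0.139) under quantile normalization. Over any stage, the moderated F test of limma called 17 of the 19 probesets, against 63.5% of all; 1451122_at of Idi1 and 1420013_s_at of Lss were not called (adjusted p = 0.282 and 0.0605).

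Disagreement between probesets of a gene was not particular to these genes. Among all genes with at least 2 called probesets, 2540 of 5068 (50.1%) had calls in opposite directions at E16.5 against E14.5, 2406 of 5148 (46.7%) at E18.5 against E14.5, and 83 of 498 (16.7%) at E18.5 against E16.5. Among the 7 genes the numbers were 1 of 4 (Fdft1), 3 of 4 and 0 of 1. The 3 were Hmgcs1, Fdft1 and Lss.

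Arrays of the same stage differed in the members' signals. Of the 15 probesets above background on all 8 arrays, 9 were lowest in E18.5 replicate 3 among the E18.5 arrays, against 34.2% of the 17251 such probesets in all, and 0 were lowest in E18.5 replicate 2, against 33.1%. By the brightest probeset, 5 of 7 genes were lowest in replicate 3, all but Hmgcs1 and Idi1. The median deviation of the 15 probesets from their stage means was log2 -0.31 in replicate 3, and that of all 17251 was -0.0021. At E14.5, 14 of the 15 probesets were lower in replicate 2 than in replicate 1, against 43.7% of all. At E16.5, 8 of the 15 were lowest in replicate 2, against 33.8%, with a median deviation of -0.0225. E18.5 replicate 3 also differed in summed marker signals. Its 6 sebocyte markers summed to 13840, against 23950 and 21590 in replicates 1 and 2, its 7 hair follicle markers to 11090, against 37970 and 19030, and its 6 basal keratinocyte markers to 53790, against 65290 and 62060. Its 6 skeletal muscle markers summed to 101000, against 83030 and 65370, and its 5 proliferation markers to 16530, against 12070 and 12720. The 7 suprabasal and granular markers summed to 126700, against 119500 and 124000, and the 6 fibroblast markers to 148000, against 121100 and 132600. Adipocyte and melanocyte sums were also lowest in replicate 3, erythroid and endothelial sums were highest, and the macrophage sum lay between. The part of these differences in the result was not tested. Without replicate 3 the falls of Sqle and Dhcr7 at E18.5 against E16.5 were still called, and 6 probesets were called higher in place of 5.

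**Figure D3:**
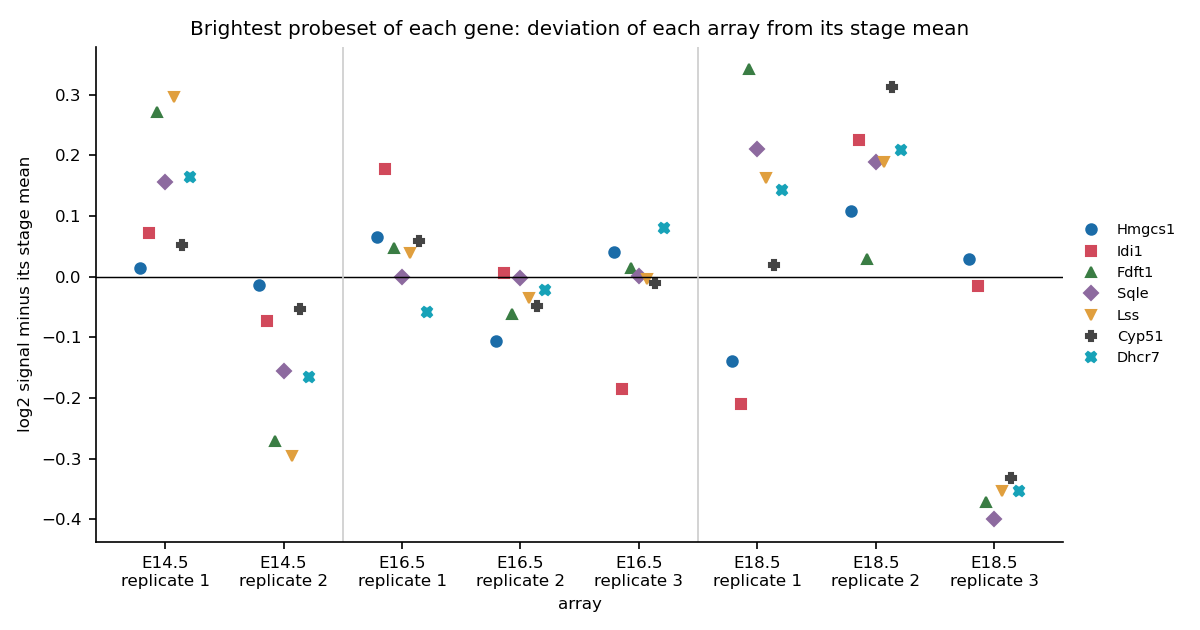
Deviation of the brightest probeset of each gene from its stage mean on the log2 scale (vertical axis) on each of the 8 arrays (horizontal axis), with 1 symbol per gene. In E18.5 replicate 3 the 5 genes Fdft1, Sqle, Lss, Cyp51 and Dhcr7 lie below the other E18.5 arrays, while Hmgcs1 and Idi1 do not.

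Cell type markers also differed between E18.5 and E16.5. Of the sebocyte markers, sebaceous gland cells being rich in lipid synthesis, 5 of 6 were called higher at E18.5 and 1 lower. Their summed signal was 13840 to 23950 at E18.5 and 7115 to 7777 at E16.5. At E14.5 it was 12770 to 13810, although Scd3 and Krt79 were at background there. All 5 adipocyte markers were called higher, with sums of 28620 to 36120 at E18.5 and 7291 to 9407 at E16.5. All 7 hair follicle markers were called higher, with sums of 11090 to 37970 at E18.5 and 1750 to 2107 at E16.5, where Krt25, Krt27 and Krt28 were at background. Of the 6 basal keratinocyte markers limma called 0, with sums of 53790 to 65290 at E18.5 and 47930 to 54060 at E16.5. Of the 7 suprabasal and granular markers 1 was called higher and 3 lower, with sums of 119500 to 126700 at E18.5 and 89530 to 103500 at E16.5. Calls were 2 higher of 6 for fibroblast, 1 higher and 1 lower of 6 for skeletal muscle, 2 higher of 6 for macrophage, 4 higher of 5 for melanocyte, 3 lower of 4 for erythroid, 1 lower of 4 for endothelial and 1 lower of 5 for proliferation markers. The part of cell composition in the members' changes was not tested.

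A list of other enzymes of the pathway was read in the same way. It also held Acat1, a mitochondrial thiolase and not a cytosolic enzyme of the pathway. Of 17 listed symbols 13 were measured, each by its brightest probeset, and that of Idi2 was at background on all 8 arrays. At E16.5 against E14.5 7 were called higher and 2 lower, against 37.1% and 20.8% of all genes. The median log2 change of the 13 was 0.73, where that of all genes was 0.29. Fdps, the synthase of farnesyl diphosphate that stands between Idi1 and Fdft1, gave 4550, 4793 and 5299 at E16.5, against 400 and 308 at E14.5. This was a 13.3-fold rise (log2 3.74 ± 0.22, adjusted p = 2.12e-07), although its other probeset changed by 0.33 and was not called. Tm7sf2, a sterol reductase, and Sc5d, a sterol desaturase, were higher by log2 2.25 ± 0.26 and 2.15 ± 0.15. Lbr, a lamin receptor with sterol reductase activity, was 2.02-fold lower (log2 -1.01 ± 0.14), and Hsd17b7, a ketosteroid reductase, was lower by its brightest probeset (log2 -1.54 ± 0.23) but higher by its 3 others.

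At E18.5 against E16.5, 1 of the 13 listed enzymes, Acat1, was called higher and 1 lower, against 6.69% and 5.21% of all genes. Their median log2 change was -0.10, where that of all genes was 0.12. Mvk, mevalonate kinase, gave 778, 611 and 523 at E18.5, against 1192, 1072 and 1342 at E16.5. It was 1.88-fold lower with no overlap (log2 -0.91 ± 0.17, adjusted p = 0.00887), and the call was lost without E16.5 replicate 3 (adjusted p = 0.0585). Its other probeset changed by -0.042 and was not called. Acat1, a mitochondrial acetoacetyl-CoA thiolase, was called higher at the threshold (log2 0.47 ± 0.13, adjusted p = 0.04997), a call lost in 13 of 19 alternatives, including that without each array except E18.5 replicate 3 (adjusted p = 0.0608 to 0.189).

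Genes of cholesterol uptake, transport and efflux moved in both directions. Of 12 measured, 1 was called higher and 3 lower at E18.5 against E16.5, and 8 higher and 1 lower at E16.5 against E14.5, of 15 listed. Of all genes, 6.69% and 5.21% were called in the later interval and 37.1% and 20.8% in the earlier. The median log2 changes of the 12 were -0.02 and 1.00, where those of all genes were 0.12 and 0.29. Vldlr, a lipoprotein receptor, gave 1983 and 1721 at E14.5, 393.7, 287.2 and 299.5 at E16.5, and 881, 793 and 781 at E18.5. It was lowest at E16.5 with no overlap, 2.45-fold higher at E18.5 than at E16.5 (log2 1.29 ± 0.16, adjusted p = 0.00118), and 5.49-fold lower at E16.5 than at E14.5. Its 6 probesets disagreed: in the later interval the other 5 were not called, with changes down to log2 -0.32, and in the earlier 2 were called higher and 3 lower. Lipa, the lysosomal acid lipase that frees cholesterol from lipoprotein esters, was 1.84-fold lower at E18.5 than at E16.5 (log2 -0.88 ± 0.15, adjusted p = 0.00589), by 1 of its 3 probesets. Abcg1, a cholesterol exporter, and Lrp1, a lipoprotein receptor, were lower by log2 -0.73 (adjusted p = 0.0389) and -0.40 (adjusted p = 0.0376), each by 1 of 2 probesets. Their calls were lost without any of the E16.5 replicates (adjusted p = 0.102 to 0.157) or E18.5 replicate 2 (adjusted p = 0.0793 and 0.0799), and that of Abcg1 without E18.5 replicate 3 (adjusted p = 0.0764). At E16.5 against E14.5 Mylip, a ubiquitin ligase that acts on lipoprotein receptors, was 9.09-fold higher (log2 3.18 ± 0.16), and Stard3 and Stard4, which move cholesterol between membranes, were higher by log2 1.99 ± 0.22 and 1.23 ± 0.23. Of the 3 probesets of Stard4, 2 were called higher. The Stard4 call was lost under median centring (log2 0.28, adjusted p = 0.295).

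Among the sterol regulators, Insig1, itself a classical target of the sterol-responsive factors, fell furthest. It gave 429, 362 and 369 at E16.5, against 12560 and 9241 at E14.5, a 26.9-fold difference without overlap in its only probeset (log2 -4.75 ± 0.20, adjusted p = 3.83e-08), and 462, 678 and 465 at E18.5. The fall at E16.5 was called in all 19 alternatives (log2 -5.70 to -4.53). Of 9 regulators measured, from 11 listed, 5 were called higher and 1 lower at E16.5 against E14.5, and 0 higher and 1 lower at E18.5 against E16.5, against 37.1% and 20.8% of all genes in the earlier interval and 6.69% and 5.21% in the later. Their median log2 changes were 1.02 and -0.13, where those of all genes were 0.29 and 0.12. The rises included Insig2 (log2 1.95 ± 0.21, 2 of 3 probesets called), Scap (log2 1.67 ± 0.15, 1 of 2 called) and Nr1h3, a sterol-sensing nuclear receptor, which was at background at E14.5 and at least 1.66-fold higher at E16.5. Scap was lower at E18.5 than at E16.5 (log2 -0.54 ± 0.13, adjusted p = 0.0271), a call lost without any of the E16.5 replicates (adjusted p = 0.0962 to 0.112); its other probeset changed by 0.57 and was not called. Srebf2 gave 1564, 1546 and 1429 at E18.5, against 1888, 1891 and 1990 at E16.5, and was not called (log2 -0.34 ± 0.11, adjusted p = 0.0731).

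**Figure D4:**
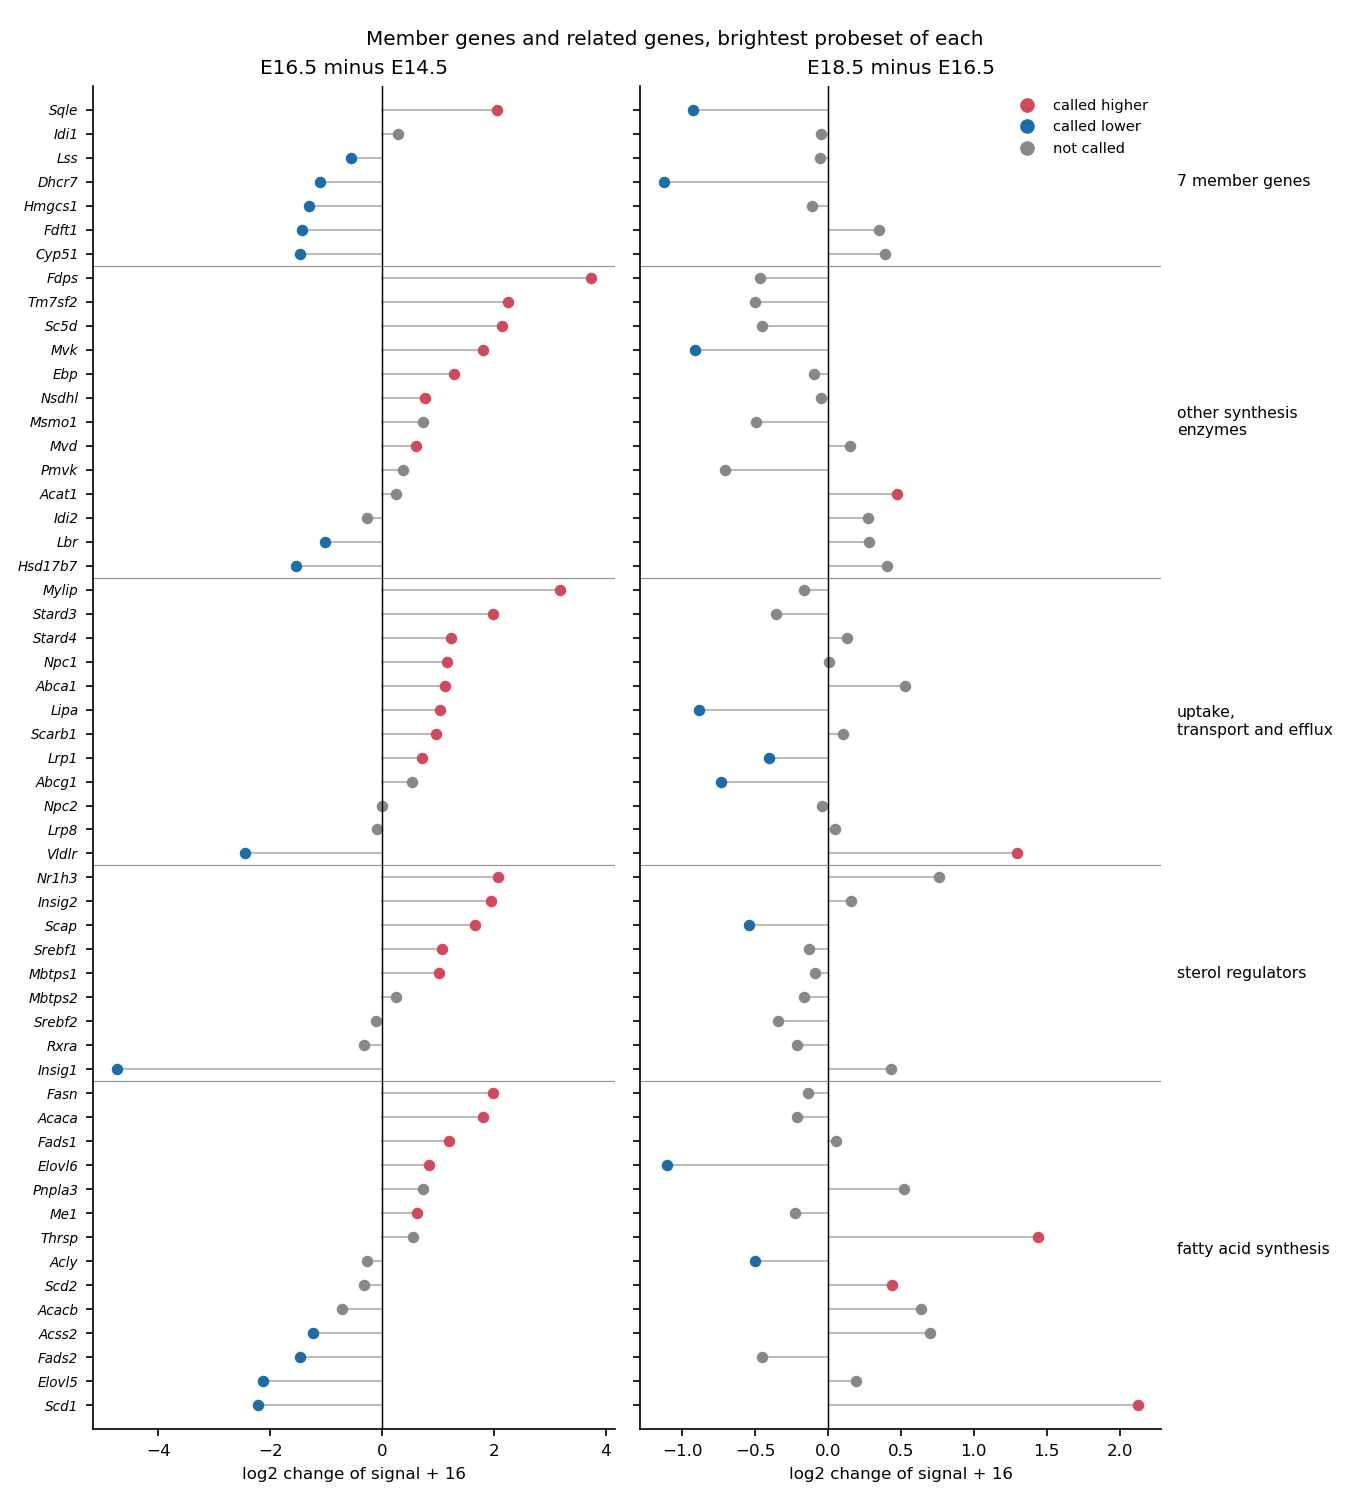
Log2 change of the brightest probeset of each gene (horizontal axes) at E16.5 against E14.5 (left) and at E18.5 against E16.5 (right), for the 7 member genes and 4 lists of related genes (vertical axis); colour gives the limma call. On the left Fdps has the largest rise and Insig1 the largest fall. On the right Sqle and Dhcr7 fall, as do the related genes Elovl6, Mvk and Lipa, while Scd1, Thrsp and Vldlr rise.

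Of the 14 genes of fatty acid synthesis, 3 were called higher and 2 lower at E18.5 against E16.5, and 5 higher and 4 lower at E16.5 against E14.5, against 6.69% and 5.21% of all genes in the later interval and 37.1% and 20.8% in the earlier. Their median log2 changes were 0.12 and 0.15, where those of all genes were 0.12 and 0.29. Scd1, a stearoyl-CoA desaturase prominent in sebocytes, gave 2817, 4167 and 1290 at E18.5, against 516, 557 and 597 at E16.5. It was 4.36-fold higher (log2 2.12 ± 0.35, adjusted p = 0.00484) with no overlap, and lowest of the 3 E18.5 arrays in replicate 3. Thrsp, a lipogenic regulator, was 2.72-fold higher (log2 1.44 ± 0.21), and Elovl6, a fatty acid elongase, gave 1272, 1301 and 1268 at E18.5, against 2897, 2486 and 2966 at E16.5 (log2 -1.11 ± 0.12, adjusted p = 0.000628). Scd2 (log2 0.44, adjusted p = 0.0483) and Acly, the ATP citrate lyase (log2 -0.50, adjusted p = 0.0256), were called with all arrays and lost their calls in 13 and 4 alternatives. Of the 6 probesets of Acly 1 was called higher and 2 lower, with changes of log2 -0.85 to 1.09, and the other 2 of Scd2 were not called. For Thrsp 2 of 3 probesets were called higher, and for Elovl6 2 of 3 lower. The calls of Scd2 and Acly were both lost without any of the E16.5 replicates (adjusted p = 0.0731 to 0.197). That of Scd2 was also lost without either E14.5 replicate, E18.5 replicate 1 (adjusted p = 0.0961) or replicate 2 (adjusted p = 0.115). At E16.5 against E14.5 Fasn, the fatty acid synthase, and Acaca, the carboxylase before it, were higher by log2 1.99 ± 0.16 and 1.82 ± 0.17. Scd1, Elovl5 and Fads2 were lower by log2 -2.22 ± 0.39, -2.14 ± 0.14 and -1.47 ± 0.23; a second probeset of Scd1 and 1 of 3 of Fads2 were called higher.

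The genes most like the mean profile of the members were sought among 10578 genes above background on all 8 arrays. The members themselves shared no single pattern. By brightest probeset, Pearson's r over the 8 arrays was -0.86 between Sqle and Cyp51 and -0.80 between Sqle and Hmgcs1. It was -0.59 between Idi1 and Fdft1, but 0.95 between Fdft1 and Cyp51. The measure was the Pearson correlation over the 8 arrays with the mean of the members' brightest probesets, given as a description, since the 2 E14.5 arrays stand apart and all genes share the same arrays. The first 5 were Cbarp (r = 0.98), Mpzl1 (0.98), Il22ra1 (0.97), Cgn (0.96) and Gypc (0.96). Cgn, the tight junction protein cingulin, averaged 1328 ± 416 at E14.5 (SD, n = 2), 776 ± 93.0 at E16.5 and 479 ± 117 at E18.5 (SD, n = 3 each). On deviations from the stage means the first 5 were different genes, Derl2 (0.99), Ext1 (0.99), Tbrg1 (0.98), Snhg17 (0.98) and Ttc4 (0.98).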

How the data were processed

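The values are the deposited probe intensities of 8 Affymetrix Mouse Genome 430 2.0 arrays, 1 linear-scale signal per probeset. Per the submitters' processing notes, the authors used Affymetrix Expression Console 1.1 and PLIER 2.0; the normalization between arrays was not given in the sources used here. Per the labels' protocols, total RNA was taken up in Trizol and amplified with random primers to a labelled sense-strand DNA target, a whole-transcript procedure, while the array is a 3′ design, so the target preparation is uncertain.

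Of the probesets, 34945 carry 1 gene symbol, 932 several, 9211 none and 64 are controls; the first were analysed as log2(signal + 16) without further normalization. Limma 3.58.1 in R 4.3.3 fitted 1 mean per stage over all 8 arrays, with moderated variances that follow a trend in mean signal, and p-values were adjusted by Benjamini-Hochberg over all 34945 probesets. A probeset was called at an adjusted p under 0.05. SE is the moderated standard error. Related genes and markers were read from the probeset brightest over the 8 arrays. Apart from Srebf1, Srebf2 and Idi2, the related genes named passed the test with the largest changes in each list and direction. The model script was tested on simulated data. Alternatives were other pseudocounts, normalizations, filters, variance settings and probeset summaries, and leaving out each array. The few arrays per stage limit the precision.

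Replicate numbers follow accession order and pair no arrays; the number codes in the sample titles are unexplained and were not used. The member genes and the gene lists were chosen with earlier results of these data known. Promoters came from RefSeq, build GRCm38.p6.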

Additional observations from a re-analysis of the deposited data

How the results depend on the processing

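Over the alternatives run, the falls of Sqle and Dhcr7 at E18.5 against E16.5 kept their direction and call. All values here are those of limma fits, and unless a construction is named, the cause of a change was not tested. Of the member probesets, 5 were called higher at E18.5 against E16.5, 3 without a variance trend, and 2 to 6 when an array was left out (2 without E16.5 replicate 2, 3 without E16.5 replicate 3); the calls over all probesets were 3742, 2435 without a trend, and 1208 to 4120 when an array was left out (1662, 1563 and 1208 without E16.5 replicates 1, 2 and 3). At E18.5 against E14.5, 6 were called higher, 2 under quantile normalization, 0 under median centring, 3 among probesets above the median, which tests fewer probesets, and 3 to 6 when an array was left out (3 without E14.5 replicate 2). Median centring left 1 of 2 calls higher at E16.5 against E14.5 and 1 of 2 calls lower for the second change minus the first, where leaving out an array gave 1 to 2.

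With 1 value a gene, fewer features are tested by construction. For the brightest probeset and for the mean of a gene's probesets, the member calls were 0 and 2 higher at E18.5 against E16.5 (2340 and 1751 calls in all), 1 and 1 higher and 5 and 5 lower at E16.5 against E14.5 (10526 and 9599), 1 and 2 higher and 5 and 5 lower at E18.5 against E14.5 (11129 and 10330), 3 and 4 higher and 1 and 1 lower for the second change minus the first (8225 and 7033), and 5 and 7 by the F test.

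Median centring moved the median log2 change of all probesets at E16.5 against E14.5 to -0.57, where it was 0.38 as deposited, and at E18.5 against E14.5 to -0.48, where it was 0.59. The share of calls that were higher was 58.55%, 67.5% and 71.71% at E18.5 against E16.5, E16.5 against E14.5 and E18.5 against E14.5; it was 50.75%, 51.36% and 51.42% under quantile normalization and 38.51%, 33.11% and 32.87% under median centring. Signs turned under quantile normalization for Idi1 1451122_at at E18.5 against E16.5 (0.0407), Lss 1426913_at at E16.5 against E14.5 (-0.53) and Hmgcs1 1441536_at at E18.5 against E14.5 (-0.0424). Under median centring they turned for Hmgcs1 1433446_at at E18.5 against E16.5 (-0.11); at E16.5 against E14.5 for Lss 1426913_at (-0.61), Fdft1 1438918_at (-0.26), Fdft1 1438919_x_at (-0.54) and Idi1 1451122_at (-0.67); at E18.5 against E14.5 for Lss 1426913_at (-0.0173), Hmgcs1 1441536_at (-0.12) and Idi1 1451122_at (-0.83); and for the second change minus the first for Dhcr7 (0.81) and Idi1 1451122_at (0.50). With a pseudocount of 1 the second change minus the first of Fdft1 1438918_at was -0.36.

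Leaving out an array turned the sign of probesets that were not called. At E18.5 against E16.5 the ranges were -0.15 to 0.12 for Lss 1420013_s_at, -0.38 to 0.17 for Cyp51 1422534_at, -0.13 to 0.0756 for Hmgcs1 1433446_at, -0.25 to 0.20 for Fdft1 1448130_at and -0.16 to 0.06 for Idi1 1451122_at. At E16.5 against E14.5 the range was -0.0247 to 1.42 for Fdft1 1438918_at, and for the second change minus the first -0.48 to 0.96 for Fdft1 1438918_at and -0.19 to 0.15 for Dhcr7. No paired analysis was possible because the replicate numbers follow accession order; the sample titles carry number codes that may mark litters or animals, but the labels do not say what they mean, so they were not used as a block.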

Other observations

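Across the whole course, E18.5 against E14.5, the related lists held calls in both directions. Of 13 listed other synthesis enzymes, 8 were called higher and 2 lower by limma, the mitochondrial Acat1 being among the 8. Of 12 uptake and transport genes 7 were called higher and 1 lower. Of 9 sterol regulators 5 were called higher and 3 lower, and of 14 fatty acid synthesis genes 5 higher and 3 lower. The shares of all genes were 41.6% and 19.4%. Insig1, which retains Scap in the endoplasmic reticulum, was 19.9-fold lower at E18.5 than at E14.5 (log2 -4.31 ± 0.20), while Insig2 was higher by log2 2.12 ± 0.21. Fdps was higher by log2 3.27 ± 0.22 and Mylip by 3.02 ± 0.16. Abca1, a cholesterol exporter, was 3.16-fold higher at 2497 ± 931 at E18.5 (SD, n = 3) and 786.3 ± 368 at E14.5 (SD, n = 2), and its call was lost under median centring. Srebf2 and Rxra were lower by log2 -0.45 and -0.54, calls lost without E14.5 replicate 2 (adjusted p = 0.0676 and 0.181 by limma) and under quantile normalization (adjusted p = 0.111 and 0.297). Each had another probeset called higher, by log2 0.73 for Srebf2 and 4.42 for Rxra. Differences from E14.5 cannot be told apart from the arrays' preparation.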
